A study of Mus musculus with 42 samples.

Results

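Whole blood of 9 sham-treated 3xTg-AD mice, out of 42 mice sequenced in the series, was compared by the place of the electrode on the skull. In 4 mice (FA, FB, FC and FD) it lay over the prefrontal cortex, and in 5 mice (O, P, R, S and AQ) over the hippocampus. All 9 were 6 months old, carried the human transgenes of the 3xTg-AD line on a hybrid C57BL/6;129 background, had the scalp removed and an epicranial electrode cemented on the skull under anaesthesia, lived in individual cages afterwards, and were handled as for transcranial direct current stimulation (tDCS) with no current given. By the study's methods the prefrontal protocol had more and shorter sessions, spread over more days, than the hippocampal protocol, so place and protocol of the electrode cannot be told apart, and neither can any cohort or day of handling that went with them. Blood was taken soon after the last session. The members were chosen by label alone, and the results are over autosomal genes: 15078 of the 15613 genes in the count table lie on autosomes, and 15050 of these had a read in the 9 mice.

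Whole blood RNA is a mixture. Most of it comes from young red cells (reticulocytes), which still hold haemoglobin transcripts, and the rest from neutrophils, lymphocytes, monocytes and platelets. Alpha and beta globin RNA was captured and removed from these samples before library preparation, so globin levels are what was left after that step. In such bulk samples, fewer cells of a type and less RNA per cell cannot be told apart.

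Some libraries went against what is known of the mice. The study's methods call the 3xTg-AD mice male, but the prefrontal mice FA, FC and FD had 578, 416 and 265 reads on Xist, the RNA of the inactive X chromosome, and 0 to 3 reads on 4 Y-linked genes. The prefrontal mouse FB had 1 Xist read and 903 Y-linked reads, and the hippocampal mice had 0 Xist reads and 405 to 1071 Y-linked reads. Xist reads and electrode therefore went almost together, and the count of called genes and the medians of most gene lists are also given with FB as the only prefrontal mouse, with Xist reads as a covariate, or both. Throughout, this covariate is yes or no, not the number of reads. It is yes for mice with at least 10 Xist reads and more Xist than Y-linked reads. A fit with FB alone takes its spread from the 5 hippocampal mice, so its p-values assume that prefrontal mice vary as these do. The hippocampal mouse AQ had 0 reads on Npy, a neuropeptide gene that had 6080 to 14129 reads in the other 8 mice. Among the hippocampal 3xTg-AD mice given tDCS, which this comparison does not use, AM had 3 Npy reads and the others 3395 to 9390. AQ matched the other 3xTg-AD mice at other genes that separate the strains. Its levels of Klk1b22 and Gdpd3 were 79.6 and 140 CPM, and no C57BL/6 mouse of 6 months was above 0.421 CPM in either gene.

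The libraries held 14950841 to 33362004 counted reads in the hippocampal and 23937815 to 33701994 in the prefrontal mice, a difference smaller than the spread (exact permutation test, two-sided, p = 0.651, adjusted p = 0.651 over 4 measures). Fewer genes had a read in the prefrontal mice, 12944 to 14000 against 14180 to 15251 (adjusted p = 0.0317, exact permutation test). No mouse overlapped between the groups in this measure. Haemoglobin genes took 25.9% to 53.6% of the reads with the prefrontal and 16.9% to 30.7% with the hippocampal electrode (adjusted p = 0.0423, exact permutation test), and the 10 most abundant genes took 44.9% to 65.3% against 39.0% to 46.6% (adjusted p = 0.0317, exact permutation test). The smallest p that this design allows is 0.00794. Without O, P, R, S or FD each of these 3 measures lost its adjusted p under 0.05, while the differences stayed at -1100 to -855 genes, 9.04 to 15.0 percentage points of haemoglobin reads and 6.07 to 10.6 percentage points for the 10 most abundant genes. With 4 mice against 4 an exact two-sided p cannot go below 0.0286.

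The first principal component of the autosomal genes held 33.2% of the variance. FA, FC and FD scored 22.2 to 40.8 on it, and O, P, R and S scored -32.7 to -13.8. FB at -1.0 and AQ at 3.45 lay between them, with AQ on the prefrontal side of FB. The second component held 15.5% and mixed both electrodes.

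**Figure D1:**
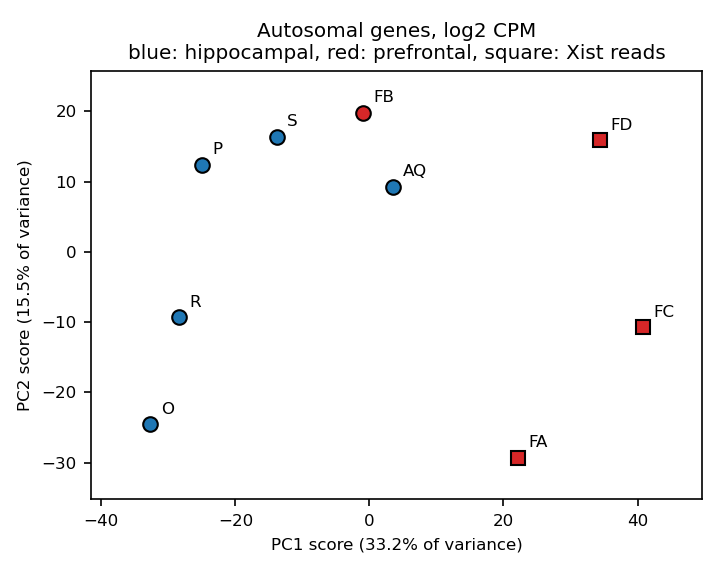
Scores of the 9 sham 3xTg-AD mice on the first (x axis) and second (y axis) principal component of log2 CPM over autosomal genes, with blue points for the hippocampal and red for the prefrontal electrode and squares for mice with Xist reads. The 3 squares lie at 22.2 to 40.8 on the first component, and the red circle of FB lies at -1.0, beside the hippocampal mouse AQ at 3.45.

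Of 15050 autosomal genes tested, 32 were called at an adjusted p under 0.05 (edgeR's quasi-likelihood test, Benjamini-Hochberg), which is 0.213% of the genes. With the prefrontal electrode, 15 were higher (0.0997%) and 17 lower (0.113%). Lower were a chloride channel protein (Clic1), a sugar-phosphate enzyme (Tkt), 2 ribosomal proteins (Rpl4 and Rpl14) and regulators active in leukocytes (Ltb, Pou2f2, Cebpb and Atf4), with log2 fold changes of -2.73 to -1.42 over the 17 genes. Higher were theta globin (Hbq1a), a complex I subunit (Ndufa3), granzyme A (Gzma), genes of vesicle transport (Rint1 and Trappc2l) and Cttnbp2, with log2 fold changes of 1.21 to 2.6 over the 15 genes. The median over all autosomal genes was -0.12, and 2451 genes had an unadjusted p under 0.05, 1004 of them higher and 1447 lower.

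The count turned on single mice. It was 407 without FB and 349 without AQ, the mice nearest to the other group, and each of those fits held the 32 genes again. It fell to 2 without FC or without FD, to 3 without O or without S, to 4 without P or without FA, and to 6 without R. With FB alone against the 5 hippocampal mice no gene was called (edgeR; 1264 at an unadjusted p under 0.05; other tools were not run on this split), which with 1 mouse in an arm says little about its stability. A fit of the 23 3xTg-AD mice of this age called 9 genes, and adding Xist reads as a covariate to that fit left 1, the uncharacterised 1500026H17Rik (log2 fold change 2.51, SE 0.42, edgeR adjusted p = 0.0394). With the haemoglobin share of reads, or 1 surrogate variable, as a covariate, edgeR called 0 genes (1328 and 1230 at an unadjusted p under 0.05). Without FA, FC and FD all 32 genes kept the direction of their difference. FB and the 5 hippocampal mice took part in choosing these genes, and in all but Gzma the groups did not overlap. Their direction with FB alone was thus largely fixed in advance and says nothing about stability. With the Xist covariate, in a fit that holds the same mice, all 32 kept their direction too. In that fit 27 of them had an unadjusted p under 0.05 (edgeR), as did 1213 autosomal genes in all. DESeq2 called 755 genes, 460 higher and 295 lower, and limma 243, 170 higher and 73 lower, so the split between the directions depended on the tool.

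**Figure D2:**
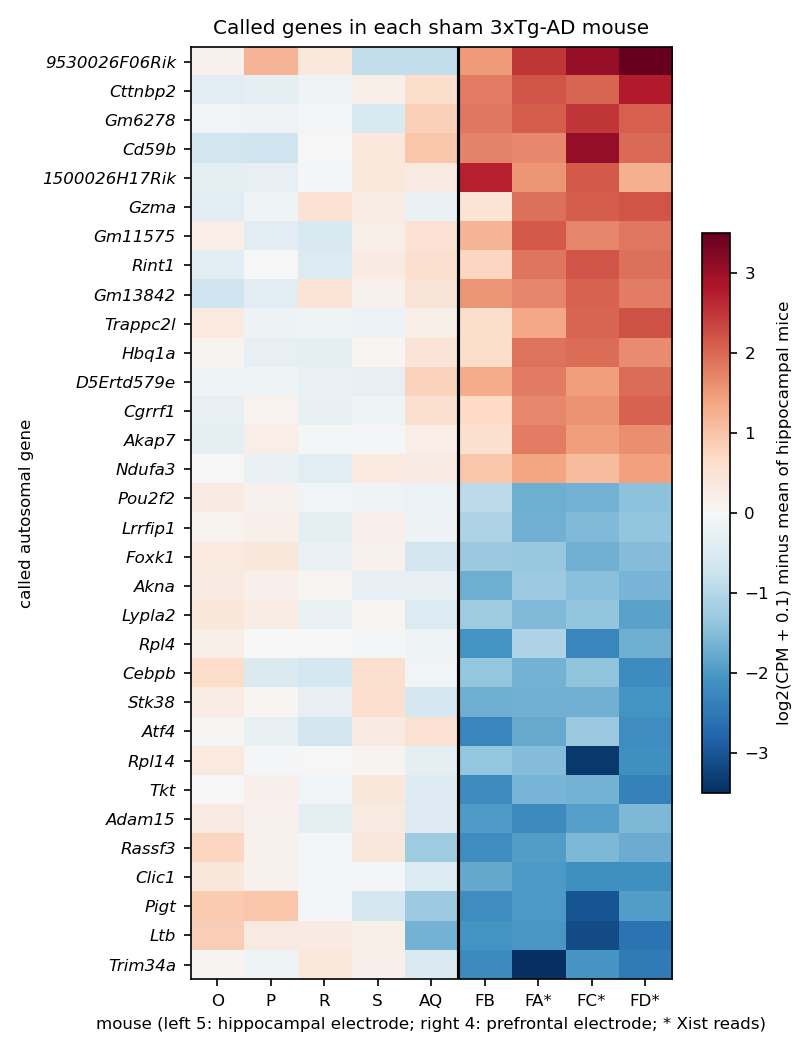
Level of the 32 called autosomal genes (rows) in each of the 9 mice (columns), as log2(CPM + 0.1) minus the mean of the 5 hippocampal mice, with red for higher and blue for lower values. The colours of FB are paler than those of FA, FC and FD in Gzma, Rint1 and Hbq1a, and as dark in Tkt and Atf4.

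Clic1 encodes a small protein that occurs both soluble and as a chloride channel (GRCm38 chr17:35049966-35058749). Its level was 69.6, 59.2, 52.2, 52.2 and 38 CPM in O, P, R, S and AQ (reads relative to library size, scaled by TMM over all 42 mice), and 13.2, 15.3, 11.9 and 11.9 CPM in FA, FB, FC and FD. The TMM factors were 1.19, 1.16, 1.37, 1.05 and 0.737 in O, P, R, S and AQ. In FA, FB, FC and FD they were 0.636, 1.02, 0.613 and 0.365. A smaller factor raises every level of a mouse, so levels, list sums and overlap between the groups depend on this scaling, most of all for FD. Each prefrontal mouse was below each hippocampal mouse, and FB was the highest of the prefrontal mice by a small margin. The log2 fold change was -2.06 (SE 0.24, edgeR adjusted p = 0.00837), and Clic1 was called in each of the 9 fits that left out 1 mouse. With FB alone it was -1.83.

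Tkt encodes transketolase of the pentose phosphate pathway (chr14:30548359-30574720). It stood at 62.2, 70.6, 58.1, 82.9 and 45.5 CPM in the hippocampal mice O, P, R, S and AQ, and at 20.2, 13.6, 19.8 and 12.1 CPM in FA, FB, FC and FD. The groups did not overlap and the log2 fold change was -1.97 (SE 0.26, edgeR adjusted p = 0.0112). Tkt was called in 7 of the 9 fits without a mouse.

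Atf4, the transcription factor of the integrated stress response (chr15:80255184-80257541), was at 93.1, 76.3, 58.4, 114 and 133 CPM in O, P, R, S and AQ, and at 26.9, 18.8, 36.8 and 20.1 CPM in FA, FB, FC and FD. FB was the lowest of the 9 mice and AQ the highest. The log2 fold change was -1.90 (SE 0.29, edgeR adjusted p = 0.0262), and with Xist reads as a covariate it was -2.39 (SE 0.48, unadjusted p = 3.74e-05, edgeR adjusted p = 0.191).

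Several of the called genes that were lower act in leukocytes. Ltb, the membrane-bound cytokine lymphotoxin beta (chr17:35194439-35196320), was at 55.5, 38.5, 37.5, 35.2 and 9.61 CPM in O, P, R, S and AQ and at 7.46, 7.17, 3.41 and 5.04 CPM in FA, FB, FC and FD. AQ lay near the prefrontal mice, and the log2 fold change was -2.61 (SE 0.44, edgeR adjusted p = 0.0355). Pou2f2, the lymphocyte factor Oct-2, was at 52.0 to 73.4 CPM with the hippocampal and 18.4 to 31.8 CPM with the prefrontal electrode, where FB was the highest. Cebpb, a myeloid transcription factor, had 18.4 to 44.2 and 6.01 to 11 CPM, and Akna, an AT-hook protein of lymphocytes and centrosomes, had 36.6 to 56.0 and 13.6 to 18.7 CPM. In these 3 genes, too, no prefrontal mouse reached the lowest hippocampal mouse.

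The other called genes that were lower have general roles. Rpl4 and Rpl14 encode proteins of the large ribosomal subunit and have processed copies elsewhere in the genome, so their counts are uncertain. Rpl4 was at 171 to 220 CPM with the hippocampal and 38.9 to 90.0 CPM with the prefrontal electrode, and Rpl14 at 124 to 201 and 15.1 to 61.5 CPM. Stk38, a kinase of the NDR family, had 20.1 to 46.9 and 7.15 to 9.67 CPM, Lypla2, which removes fatty acids from proteins, 47.3 to 85.9 and 17.9 to 27.6 CPM, and Pigt, a subunit of the enzyme that attaches GPI anchors, 14.8 to 70.6 and 4.29 to 9.10 CPM. Foxk1, a forkhead transcription factor, Lrrfip1, a nucleic acid binding protein, Adam15, a membrane protease, Rassf3, a protein with a Ras association domain, and Trim34a, of the TRIM family, complete the 17. Their log2 fold changes were -1.51, -1.44, -2.03, -2.03 and -2.73. Adam15 and Trim34a were low throughout, with at most 7.19 and 4.13 CPM.

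Cttnbp2, a cortactin-binding protein known from neurons, had the smallest p of the genes that were higher (chr6:18366478-18514843). It was at 6.46, 6.64, 7.67, 9.79 and 13 CPM in O, P, R, S and AQ and at 39.1, 29.1, 34.8 and 57.8 CPM in FA, FB, FC and FD. The lowest prefrontal mouse, FB, was above the highest hippocampal mouse, AQ. The log2 fold change was 2.20 (SE 0.28, edgeR adjusted p = 0.0112), it was called in 9 of the 9 fits without a mouse, and it was 1.74 with FB alone. Cttnbp2 also separates the strains: it did not exceed 0.488 CPM in any 6-month C57BL/6 mouse.

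D5Ertd579e, an uncharacterised protein-coding gene, was at 26.5, 26.7, 24.9, 24.0 and 51.9 CPM in O, P, R, S and AQ and at 103, 72.3, 81.6 and 114 CPM in the prefrontal mice FA, FB, FC and FD. AQ stood apart from the other hippocampal mice, below the lowest prefrontal mouse. The log2 fold change was 1.59 (SE 0.27, edgeR adjusted p = 0.0355) and 1.78 with Xist reads as a covariate.

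In several of the other genes that were higher, FB was the lowest of the prefrontal mice. Gzma, the granule protease of cytotoxic lymphocytes, was at 11.3, 13.3, 20.9, 17.7 and 12.6 CPM in O, P, R, S and AQ and at 56.4, 20.7, 64.6 and 67.9 CPM in FA, FB, FC and FD. FB was thus below the hippocampal mouse R. Its log2 fold change was 1.77 (SE 0.32, edgeR adjusted p = 0.0392), and it was 0.45 with FB alone and 0.51 with Xist reads as a covariate (unadjusted p = 0.283).

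Rint1, a tethering factor between Golgi and endoplasmic reticulum, was at 7.01 to 14.3 CPM in the hippocampal mice and at 35.7, 16.3, 44.7 and 37.1 CPM in FA, FB, FC and FD. Trappc2l, of the TRAPP tethering complex, was at 26.5 to 39.1 CPM and at 78.4, 46.8, 127 and 145 CPM. Cgrrf1, a RING finger protein, was at 29.0 to 51.6 CPM and at 113, 57.5, 104 and 148 CPM. With FB alone the log2 fold changes of Rint1, Trappc2l and Cgrrf1 were 0.70, 0.59 and 0.67, against 1.72, 1.65 and 1.54 with all 4 prefrontal mice. Akap7, an anchor of protein kinase A, showed the same order, with 56.2 to 84.2 CPM in the hippocampal mice, 105 CPM in FB and 197 to 249 CPM in FA, FC and FD. Cd59b, an inhibitor of complement on the cell surface, had 2.07 to 6.83 and 11.2 to 29.6 CPM. The remaining called genes that were higher are 9530026F06Rik, 1500026H17Rik, Gm13842, Gm11575 and Gm6278, which have no established function. Of these, 9530026F06Rik had the largest log2 fold change, 2.6, and 1500026H17Rik was highest in FB, at 10.9 CPM against 1.23 to 2.03 CPM in the hippocampal mice. Named by the same rule, but not past the threshold, were Atp5mpl, a subunit of ATP synthase (1.29, SE 0.25, edgeR adjusted p = 0.0551), and Bin1, a membrane-shaping protein (1.27, SE 0.25, edgeR adjusted p = 0.0570).

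Transcript length was compared as a description, with no test. For each gene the longest protein-coding transcript was taken, or the longest of any type where none is coding. Its median was 996 bases over the 15 genes that were higher and 2590 bases over the 17 that were lower, beside 2760 bases over the 15050 genes tested. Of the genes that were higher, 9530026F06Rik, 1500026H17Rik, Gm13842, Gm11575 and Gm6278 are not protein-coding, while all 17 that were lower are. These medians therefore mix gene type with length. Of the genes that were higher, 53.3% were under 1000 bases, against 0% of those that were lower and 13.9% of all genes. In a wider set of 420 genes (2.79%) each prefrontal mouse was above each hippocampal mouse, and in 606 genes (4.03%) below. Of these, 27.4% and 8.09% were under 1000 bases, and the medians were 2216 and 2760 bases. Among protein-coding genes the shares were 13.1% and 4.84%, beside 5.90% of those tested, and the medians were 2838 and 2832 bases, beside 3084. The median GC content was 48.6% in the 420 genes and 51.6% in the 606.

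Among the haemoglobin genes, only Hbq1a was called. The adult haemoglobin tetramer joins alpha chains (Hba-a1 and Hba-a2, chromosome 11) with beta chains (Hbb-bs and Hbb-bt, chromosome 7). Theta globin, Hbq1a, lies beside the alpha genes. The promoters of these genes are shown because of their log2 fold changes, given below. These were 2.71 and 1.59 for Hba-a1 and Hbq1a and 1.02 and 0.98 for Hbb-bs and Hbb-bt, a contrast between genes that was not tested. In both beta genes, FD was the only prefrontal mouse above the hippocampal range. Capitals mark 4 short motifs searched on both strands, which may overlap. The sequences are from RefSeq, build GRCm38.p6, on the strand of the gene, 5′ to 3′, in windows of 300 bases around the start. The window of Hba-a2 shares a stretch of 297 bases with that of Hba-a1 and is left out. The windows are chr11:32283422-32283721 and chr11:32299819-32300118 on the plus strand and chr7:103827879-103828178 and chr7:103813874-103814173 on the minus strand.
Hba-a1: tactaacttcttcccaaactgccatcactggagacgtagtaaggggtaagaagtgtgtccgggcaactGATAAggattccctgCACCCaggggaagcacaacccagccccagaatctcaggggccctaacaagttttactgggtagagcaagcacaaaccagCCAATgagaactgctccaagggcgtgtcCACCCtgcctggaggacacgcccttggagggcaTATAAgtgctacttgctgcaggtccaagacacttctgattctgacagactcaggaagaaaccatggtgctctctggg
Hbq1a: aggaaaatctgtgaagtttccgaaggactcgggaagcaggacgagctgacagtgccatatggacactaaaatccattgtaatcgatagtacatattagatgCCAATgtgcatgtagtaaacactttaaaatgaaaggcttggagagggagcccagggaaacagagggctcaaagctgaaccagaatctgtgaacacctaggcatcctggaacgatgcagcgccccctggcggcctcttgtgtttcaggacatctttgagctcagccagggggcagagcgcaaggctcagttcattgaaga
Hbb-bs: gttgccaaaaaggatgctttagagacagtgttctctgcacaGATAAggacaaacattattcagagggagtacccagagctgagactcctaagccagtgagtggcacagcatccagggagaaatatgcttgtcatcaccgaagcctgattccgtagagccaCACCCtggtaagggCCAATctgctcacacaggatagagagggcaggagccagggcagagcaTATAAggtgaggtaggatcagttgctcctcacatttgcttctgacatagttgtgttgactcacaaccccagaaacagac
Hbb-bt: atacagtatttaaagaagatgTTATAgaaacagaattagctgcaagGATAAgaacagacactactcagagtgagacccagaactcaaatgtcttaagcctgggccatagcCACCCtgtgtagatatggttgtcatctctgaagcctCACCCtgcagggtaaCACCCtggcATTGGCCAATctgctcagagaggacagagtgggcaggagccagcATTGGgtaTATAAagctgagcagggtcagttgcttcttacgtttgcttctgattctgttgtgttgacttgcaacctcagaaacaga

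The capitals mark the core bound by erythroid GATA factors, GATAA, present in 25.4% of the 32851 promoters of that table. They also mark the letters of the box bound by KLF factors, CACCC, present in 57.5%. The letters of the TATA box, TATAA, were present in 24.9%, and those of the CCAAT box in 37.4%. Hba-a1, Hbb-bs and Hbb-bt hold each of the 4, and Hbq1a holds the last but not the other 3 in this window. These are matches of letters, not measured binding.

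Hbq1a was at 384, 293, 289, 374 and 486 CPM in O, P, R, S and AQ and at 1350, 559, 1390 and 1120 CPM in FA, FB, FC and FD. FB lay nearer to the hippocampal mice than to the other prefrontal mice. Its log2 fold change was 1.59 (SE 0.29, edgeR adjusted p = 0.0392), and it was 0.62 with FB alone and 0.84 with Xist reads as a covariate (unadjusted p = 0.0759).

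Hba-a1 was at 11300, 12200, 12500, 15700 and 86500 CPM in O, P, R, S and AQ and at 224000, 112000, 147000 and 237000 CPM in FA, FB, FC and FD. The groups did not overlap, and AQ stood between the other hippocampal mice and the prefrontal mice. At 2.71 (SE 0.67), its log2 fold change did not pass the threshold (edgeR adjusted p = 0.0765), and neither did that of Hba-a2, 2.81 (SE 0.68, edgeR adjusted p = 0.0755). The alpha genes are near-identical copies, so reads may be divided between them or lost, and their sum is safer than either.

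Hbb-bs was at 72400 to 165000 CPM in the hippocampal mice and at 94200, 73500, 91700 and 644000 CPM in FA, FB, FC and FD. After TMM scaling, the prefrontal mice other than FD lay within the hippocampal range. Before scaling, FA, FB and FC had 1503114, 1978508 and 1345944 Hbb-bs reads out of 25071951, 26318888 and 23937815. As shares of reads these were below each hippocampal mouse, of which O had the smallest share, 2879852 out of 33362004. FD had the largest share, 7924787 out of 33701994. The log2 fold change of 1.02 (SE 0.67) had an edgeR adjusted p of 0.482. For Hbb-bt it was 0.98 (SE 0.69, edgeR adjusted p = 0.516). Hbb-bt was at 48100 to 88000 CPM in the hippocampal mice and at 34500, 31500, 46600 and 373000 CPM in FA, FB, FC and FD. FA, FB and FC lay below each hippocampal mouse, and only FD lay above them. The ratio of alpha to beta globin reads was 0.175, 0.144, 0.181, 0.138 and 0.643 in O, P, R, S and AQ and 3.40, 2.05, 2.04 and 0.441 in FA, FB, FC and FD. FD, with the most haemoglobin reads of the 9 mice, was below AQ. The capture of globin RNA before sequencing acts on these same transcripts, and its part in the ratio was not tested.

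The ratio was also read in mice that this comparison does not use. In 3xTg-AD mice given tDCS its median was 2.46 with the prefrontal (0.433 to 5.26, 6 mice) and 0.124 with the hippocampal electrode (0.0295 to 2.95, 8 mice). In C57BL/6 mice given tDCS it was 1.62 (0.232 to 2.81, 4 mice) and 0.118 (0.0313 to 0.155, 3 mice). All 6 C57BL/6 sham mice of this age had the hippocampal electrode and spanned 0.0472 to 2.10, so the ratio also ranged widely within that site. W, Y and AA had 0.0472, 0.148 and 0.294, and AY, AZ and BA had 1.83, 1.02 and 2.10. Among the hippocampal 3xTg-AD tDCS mice, M, N, Q, T, Z and AL had 0.0295 to 0.298, and AM and AN had 1.84 and 2.95. The mice of both groups were split here with their ratios in view, and AL, at 0.298, has letters next to those of AM. The labels do not say what the letters stand for, and whether the ratio went with them was not tested. The 3 3xTg-AD sham mice of 3 months, all with the hippocampal electrode, had ratios of 1.77 to 2.62, within the range of the prefrontal mice, and 3 C57BL/6 sham mice of that age had 0.0605 to 1.51.

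**Figure D3:**
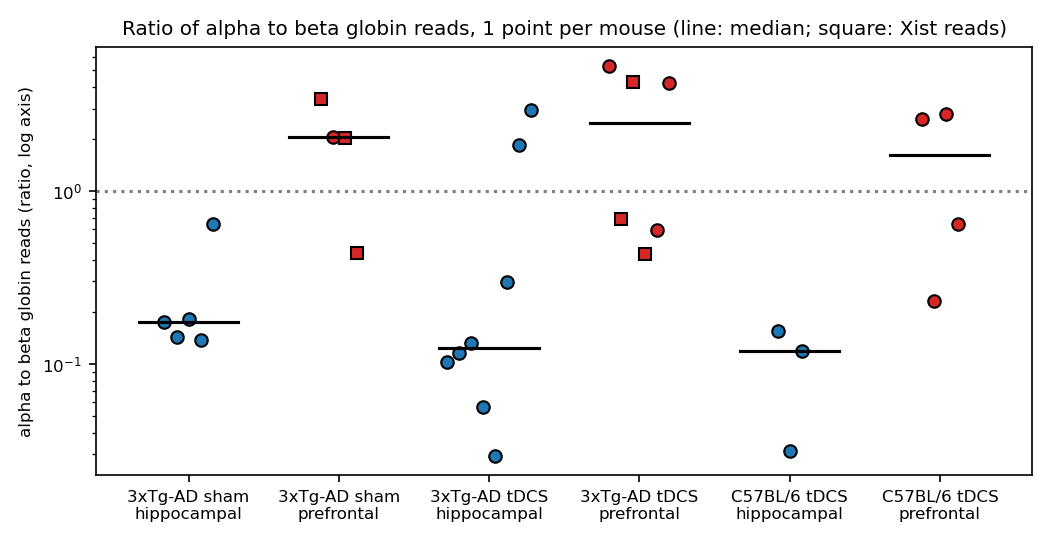
Ratio of alpha to beta globin reads on a log axis, 1 point per mouse, for 6 groups of 6-month mice by strain, stimulation and electrode, with the median as a line, blue for hippocampal, red for prefrontal and squares for mice with Xist reads. The sham hippocampal mice lie at 0.138 to 0.643 and the sham prefrontal mice at 0.441 to 3.40.

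Across the 10 haemoglobin genes of the table, edgeR called 1 (Hbq1a) and DESeq2 5, beside 32 and 755 of all 15050 genes. Of the 10, 9 were positive, and the median log2 fold change was 1.29. With FB alone it was 0.33, with 7 positive, and with the Xist covariate 0.81. In 3 of the 10 each prefrontal mouse was above each hippocampal mouse, beside 2.79% of all genes. The embryonic gene Hbb-y (1.46) and the other theta gene Hbq1b (1.24) were positive without passing. Other genes of red cells lay nearer to 0. Over 28 erythroid genes 0 were called by edgeR (4 higher and 1 lower at an unadjusted p under 0.05, and 0 called by DESeq2) and the median was 0.10. The 2 most abundant, Slc25a37, the mitochondrial iron importer, and Epb41, of the membrane skeleton, had log2 fold changes of 0.32 and 0.03. For 7 genes of haem synthesis the median was 0.22, with 0 called by edgeR and DESeq2 and 1 at an unadjusted p under 0.05. For 15 genes of ubiquitin and autophagy in reticulocytes it was 0.36, with 0 called by edgeR (5 higher at an unadjusted p under 0.05) and 4 by DESeq2. With FB alone the medians of the erythroid, haem and reticulocyte lists were -0.40, -0.38 and -0.18.

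Genes of oxidative phosphorylation, whose products form the respiratory chain and ATP synthase in mitochondria, were mostly positive. Of 77 tested, 55 were positive and 22 negative with a median of 0.53, beside -0.12 over all genes. edgeR called 1, Ndufa3, a subunit of complex I, and DESeq2 called 22, beside 32 and 755 of all 15050 genes. At an unadjusted p under 0.05 (edgeR), 30 were higher and 3 lower, beside 1004 and 1447 of all genes. In 17 (beside 2.79% of all genes) each prefrontal mouse was above each hippocampal mouse. Ndufa3 was at 66.7, 56.2, 50.9, 83.3 and 80.6 CPM in O, P, R, S and AQ and at 173, 131, 143 and 181 CPM in FA, FB, FC and FD (log2 fold change 1.21, SE 0.22, edgeR adjusted p = 0.0392). It was above the hippocampal range in FB too, and was 1.41 with Xist reads as a covariate.

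Other members did not pass. Cox8a of complex IV averaged 968 CPM ± 302 (SD, n = 4) with the prefrontal and 305 CPM ± 175 (SD, n = 5) with the hippocampal electrode (log2 fold change 1.66, edgeR adjusted p = 0.0633). Atp5j2 of ATP synthase averaged 198 CPM ± 37.6 and 96.4 CPM ± 13.9 (1.03, edgeR adjusted p = 0.0605). The 2 most abundant members, Cox6c and Uqcrh, had 0.84 and 0.58. Ndufv1, a core subunit of complex I, went the other way, at -0.98 with an unadjusted p of 0.0112. The summed level of the list was 4420 to 7630 CPM in the hippocampal mice and 10100, 6530, 10400 and 11300 CPM in FA, FB, FC and FD, so FB lay within the hippocampal range. The median of the list was 0.32 with FB alone and 0.56 with Xist reads as a covariate. It was 0.60 with the other scalings, those of RLE and DESeq2.

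Ribosomal protein genes were mixed in direction. Of 83 tested, 47 were positive, with a median of 0.08. The called Rpl4 and Rpl14 were lower, while Rpl41, among the 2 most abundant, had a positive value of 1.51 that did not pass (edgeR adjusted p = 0.0582).

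**Figure D4:**
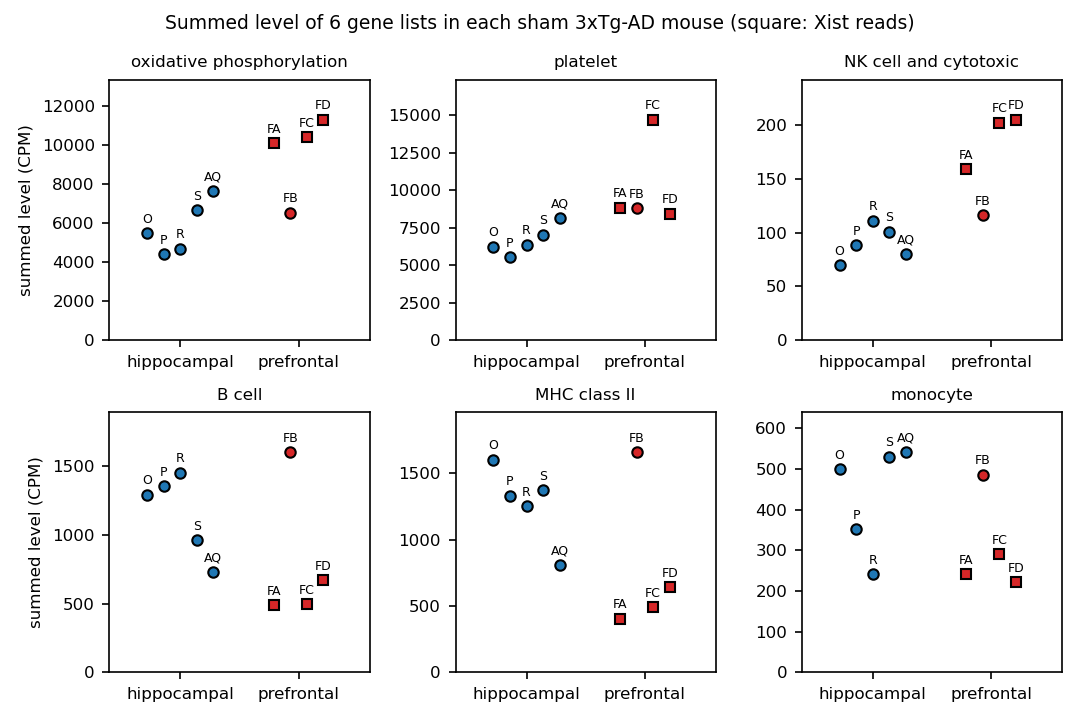
Summed level in CPM of 6 gene lists in each of the 9 sham 3xTg-AD mice, hippocampal electrode in blue and prefrontal in red, squares for mice with Xist reads. FB lies with the hippocampal mice for B cell and MHC class II genes, at 1600 and 1660 CPM, while FA, FC and FD lie at 486 to 671 and 405 to 640 CPM. Platelet genes, after TMM scaling, are above the hippocampal range in each of the 4 prefrontal mice.

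Among leukocyte lists, NK cell and cytotoxic genes had 1 member of 17 called by edgeR, Gzma, and 5 by DESeq2. Over all 15050 genes these tools called 32 and 755. The median of the list was 0.42. Of the 17, 12 were positive and 5 negative, and 5 were higher and 0 lower at an unadjusted p under 0.05 (edgeR). The median was 0.17 with FB alone, where 9 of 17 were positive, and 0.20 with the Xist covariate. Ncr1, the activating receptor NKp46, was 2.68 (SE 0.57, edgeR adjusted p = 0.0646) and Ccl5, a chemokine of cytotoxic cells, 0.95 (SE 0.25, edgeR adjusted p = 0.0866). In both the groups did not overlap, which held for 3 of the 17 members, beside 2.79% of all genes. The summed level of the list was 69.9 to 111 CPM with the hippocampal electrode and 159, 116, 202 and 205 CPM in FA, FB, FC and FD, with FB just above the hippocampal range.

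Genes of B cells and of antigen presentation by MHC class II had low summed levels in FA, FC and FD and not in FB. No member of the B cell list (18 tested) or of the MHC class II list (8 tested) was called by edgeR. At an unadjusted p under 0.05 were 1 and 3 members, and DESeq2 called 0 and 1. Every member had a negative log2 fold change, with medians of -0.66 and -0.75. Cd74, the invariant chain, averaged 86.6 CPM ± 60.5 (SD, n = 4) and 220 CPM ± 52.2 (SD, n = 5), a log2 fold change of -1.35 (edgeR adjusted p = 0.104). H2-Eb1, a class II beta chain, was at 144, 612, 214 and 219 CPM in FA, FB, FC and FD and at 294 to 658 CPM in the hippocampal mice. The summed B cell level was 727 to 1450 CPM with the hippocampal electrode, 486, 497 and 671 CPM in FA, FC and FD, and 1600 CPM in FB. With FB alone the medians turned positive, 0.34 and 0.30, and with Xist reads as a covariate they were 0.07 and -0.39. The direction of the medians with all mice was that of FA, FC and FD.

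Of 16 monocyte genes, 15 were negative with a median of -0.59, which was 0.23 with FB alone and -0.24 with the Xist covariate, where 4 of 16 were positive. Cx3cr1, the fractalkine receptor of patrolling monocytes, had -1.09 (edgeR adjusted p = 0.124). edgeR and DESeq2 called 0 of the 16, and 2 had an unadjusted p under 0.05. T cell genes (22 tested) had a median of -0.19, and plasma cell genes (10 tested) of -0.69, with 0 called by either tool and 0 and 1 at an unadjusted p under 0.05. With FB alone these medians were 0.18 and -0.13, and with the Xist covariate 0.03 and -0.29. Trac, the T cell receptor alpha constant region, was at 8.51 CPM in FC and 25.7 to 60.2 CPM in the other 8 mice.

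The values of neutrophil genes turned on the hippocampal mice S and AQ. The summed level of 16 genes was 2430, 2210, 3040, 12200 and 12100 CPM in O, P, R, S and AQ and 2030 to 4110 CPM in the prefrontal mice. S100a9, a calcium-binding alarmin, had a log2 fold change of -1.39 (edgeR adjusted p = 0.229). Of 12 genes of granules made by young neutrophils, 10 were negative with a median of -1.38, which was -0.64 with FB alone and -0.80 with the Xist covariate. Camp, the cathelicidin precursor, was at 212 and 430 CPM in S and AQ and 12.0 to 83.7 CPM in the other 7 mice, and its log2 fold change of -2.24 had an edgeR adjusted p of 0.193. S and AQ were the highest of the 9 mice. Neither list had a member called by edgeR, and 1 and 6 members had an unadjusted p under 0.05. DESeq2 called 0 and 1. Eosinophil and basophil genes (12 tested) had a median of -0.68, which was 0.24 with FB alone and -0.10 with the Xist covariate, with 0 called by edgeR and DESeq2 and 1 at an unadjusted p under 0.05.

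Of 20 platelet genes tested, 15 were positive and 5 negative with a median of 0.20, which was 0.18 with FB alone and 0.35 with the Xist covariate. None was called by edgeR (0), 5 were higher at an unadjusted p under 0.05, and DESeq2 called 4, beside 755 of all 15050 genes. In 5 each prefrontal mouse was above each hippocampal mouse, beside 2.79% of all genes: P2ry12, the ADP receptor (1.27), Pf4 (1.07) and Ppbp (0.96), both chemokines of platelet granules, Nrgn (0.63), and the lipoxygenase Alox12 (0.48). Their edgeR adjusted p values ran from 0.0620 to 0.284. Ppbp was at 777 to 1390 CPM in the hippocampal mice and 1730, 1940, 3270 and 1730 CPM in FA, FB, FC and FD, so FB was as high as the other prefrontal mice here. Before scaling, FD had 21316 Ppbp reads out of 33701994, and S had 20114 out of 14950841. The place of FD above the hippocampal mice thus rested on its TMM factor of 0.365.

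The lists of stress and stimulus response held no call by edgeR. The DESeq2 counts given for them stand beside 755 calls among all 15050 genes. Of 23 immediate early genes, 17 were negative with a median of -0.40, and 2 were higher and 5 lower at an unadjusted p under 0.05 (DESeq2 called 3). Zfp36, which destabilises cytokine mRNA, had -1.18 (SE 0.26, edgeR adjusted p = 0.0661), Junb -1.03, Klf2 -0.91, and Dusp1, a MAP kinase phosphatase, 1.46. Of 16 genes that respond to glucocorticoids, 1 was higher and 3 lower at an unadjusted p under 0.05 (DESeq2 called 1), with a median of -0.25. Of 29 interferon genes, 5 were higher and 2 lower at an unadjusted p under 0.05 (edgeR), and DESeq2 called 6. The median of 0.33 was -0.50 with FB alone and -0.18 with the Xist covariate. Rsad2, the most abundant interferon gene, had a log2 fold change of 0.10. Isg15, an ubiquitin-like protein, went against the median of the list, at -1.60 (SE 0.48, edgeR adjusted p = 0.122). Its level was 161 to 829 CPM in the hippocampal mice and 148, 39.6, 162 and 241 CPM in FA, FB, FC and FD. The medians of the inflammatory cytokine, clock, heat shock and proliferation lists were 0.23, -0.27, 0.37 and 0.46, from 19, 18, 14 and 24 genes, with 2, 4, 3 and 7 members at an unadjusted p under 0.05 and 0, 0, 1 and 4 called by DESeq2. With FB alone these medians were -0.01, -0.24, -0.21 and 0.19, and with the Xist covariate -0.04, -0.45, 0.36 and 0.46.

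Skin transcripts set some hippocampal mice apart. Of 15 keratinocyte genes, edgeR called 0 and DESeq2 3, beside 32 and 755 of all 15050 genes. At an unadjusted p under 0.05 (edgeR), 7 were lower. The median was -3.08, which was -5.66 with FB alone and -6.16 with the Xist covariate. Lor, the loricrin of the cornified envelope, was at 75.2, 1.79, 10.2, 0 and 2.0 CPM in O, P, R, S and AQ, with 0, 1, 0 and 0 reads in FA, FB, FC and FD. Its edgeR adjusted p was 0.0646. Krtdap, another late epidermal gene, had 1676, 23, 682, 0 and 20 reads in O, P, R, S and AQ and 0 reads in each prefrontal mouse, a mean at least 65.1-fold lower against a floor of 3 reads per library. O and R held most of these reads, and the hippocampal mouse S had as few as the prefrontal mice. Krt15 and Krt5, keratins of basal epithelium, did not follow: Krt15 was at 202 and 34.9 CPM in FA and FC and at 0.0636 to 177 CPM in the hippocampal mice, a log2 fold change of 0.15. Skeletal muscle genes (8 tested) had a median of 0.03, with 0 called by edgeR and DESeq2 and 0 at an unadjusted p under 0.05. The part of skin transcripts in other differences was not tested.

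The same electrode contrast can be read in mice given current, none of which enter the sham comparison. In 3xTg-AD mice given tDCS, 6 prefrontal against 8 hippocampal, edgeR called 80 of 15064 autosomal genes (0.531%), and in C57BL/6 mice given tDCS, 4 against 3, it called 424 of 15056 (2.82%), 403 of them lower. Skin genes moved with these counts: of 15 keratinocyte genes, 6 were called lower in the 3xTg-AD mice (median -5.26) and 13 in the C57BL/6 mice (median -8.95). Of the 32 genes called in sham mice, 31 had the same sign in the 3xTg-AD tDCS mice, 19 of them with an unadjusted p under 0.05 (edgeR). Over all 15064 autosomal genes, 2836 had such a p in either direction. How many of all genes kept their sign was not counted, so 31 of 32 has no background rate beside it. Called in both were Rpl4 (-1.60, SE 0.35, edgeR adjusted p = 0.0436), Ltb (-1.71, SE 0.37, edgeR adjusted p = 0.0419) and D5Ertd579e (1.75, SE 0.32, edgeR adjusted p = 0.0163), which is 9.38% of the sham calls and 3.75% of the tDCS calls. The exception in sign was Gzma, at -0.14. The median ratio of the log2 fold change in tDCS to that in sham mice was 0.494. Of the 6 prefrontal tDCS mice, 3 also had Xist reads. Within the prefrontal 3xTg-AD mice, sham and tDCS together, 6 with Xist reads against 4 without gave 1 autosomal call by edgeR. None was among the 32, of which 23 had the sign of the sham contrast. This fit held no term for current, and FB was the only sham mouse without Xist reads in it. Its sham mice took part in choosing the 32, and the share of all genes with that sign was not counted. It therefore cannot show how far the 32 went with Xist reads. With Xist reads as a covariate in the tDCS mice, 29 of the 32 kept the sign, 13 of them with an unadjusted p under 0.05, and edgeR called 1 of the 32 and 14 genes in all. Over all autosomal genes of that fit, 1719 had an unadjusted p under 0.05 (edgeR).

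Ltb was at 3.92 to 15.7 CPM in the 6 prefrontal and 9.90 to 48.4 CPM in the 8 hippocampal 3xTg-AD tDCS mice, with medians of 6.80 and 28.0. D5Ertd579e was at 54.6 to 186 and 12.8 to 41.1 CPM, without overlap. For Clic1 the contrast in these mice was -0.75 (SE 0.28, edgeR adjusted p = 0.166) and for Atf4 -0.33 (SE 0.34, edgeR adjusted p = 0.646).

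A test of the difference between the sham and the tDCS contrast in 3xTg-AD mice called 0 of 15072 genes (0%) with edgeR, with 1022 at an unadjusted p under 0.05. DESeq2 called 15. The sizes in sham and tDCS mice were therefore not shown to differ for any of the 32, of which 15 had an unadjusted p under 0.05 for the difference. For Clic1 the difference was -1.30 (SE 0.40, unadjusted p = 0.0033, edgeR adjusted p = 0.587).

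Against C57BL/6 tDCS mice the difference was called for 66 of 15076 genes (0.438%), 64 of them more positive in 3xTg-AD sham mice. Strain and current change together in this test, and the 66 include epithelial genes such as Krt5, with log2 fold changes of 0.58 in sham 3xTg-AD and -12.11 in C57BL/6 tDCS mice, whose part in the other calls was not tested. The sham calls with lower level kept their sign in C57BL/6 mice in 17 of 17 genes, and those with higher level in 3 of 15. The share of all genes that kept their sign was not counted here either. Of the 32, 8 were among the 66, each positive in sham 3xTg-AD mice and negative in C57BL/6 mice: Rint1 (1.72 and -1.15), Hbq1a (1.59 and -1.33), 9530026F06Rik (2.6 and -1.47), Cttnbp2 (2.20 and -1.87, at levels of at most 0.488 CPM in C57BL/6), Trappc2l (1.65 and -0.57), Cgrrf1 (1.54 and -0.61), Gm13842 (1.71 and -0.57) and 1500026H17Rik (2.07 and -0.72). Rint1 was at 2.53 to 4.82 CPM in the prefrontal and 5.60 to 10.9 CPM in the hippocampal C57BL/6 tDCS mice, the opposite order to the 3xTg-AD sham mice. No gene of the 32 was called in C57BL/6 tDCS mice by edgeR, where 10 had the same sign with an unadjusted p under 0.05 and DESeq2 called 4. Over all 15056 autosomal genes, 2331 had an unadjusted p under 0.05 in either direction (edgeR). Ltb (-1.24, edgeR adjusted p = 0.0557) and Rpl4 (-1.56, edgeR adjusted p = 0.0842) came close.

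**Figure D5:**
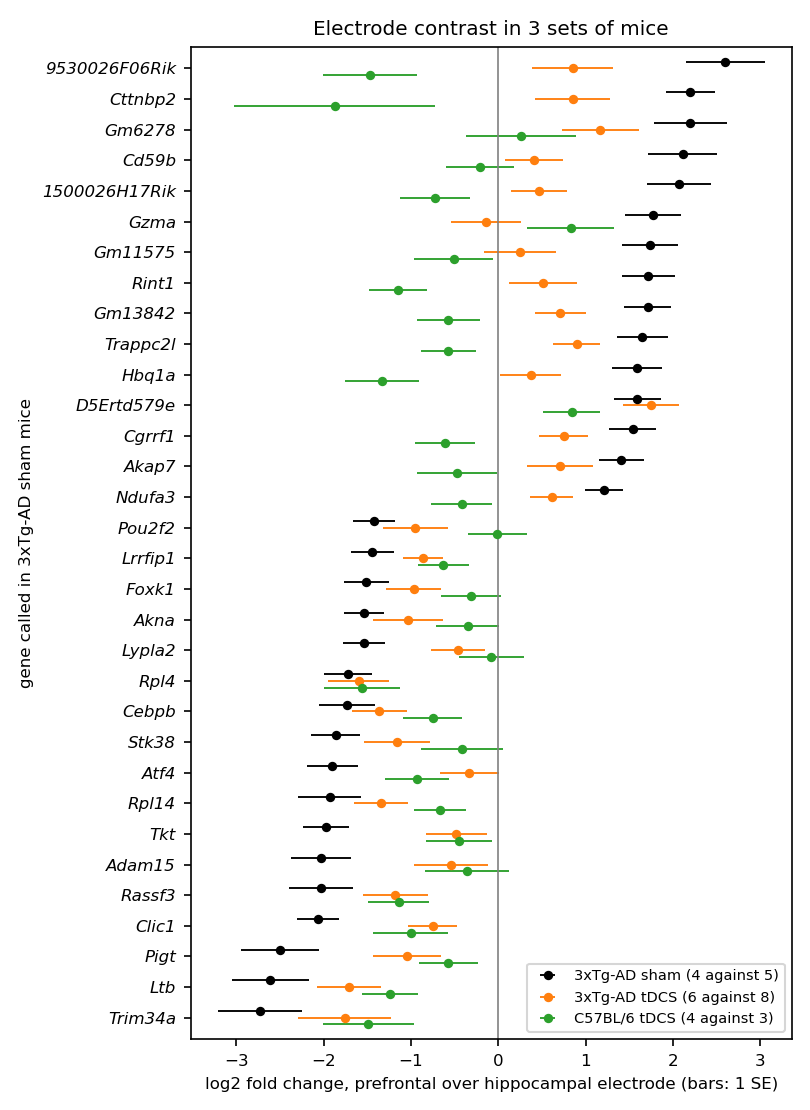
Log2 fold change of prefrontal over hippocampal electrode (x axis, bars of 1 SE) for the 32 genes called in sham 3xTg-AD mice, in sham 3xTg-AD (black), tDCS 3xTg-AD (orange) and tDCS C57BL/6 mice (green). The genes lower in sham mice lie below 0 in all 3 sets, and those higher lie below 0 in C57BL/6 mice in 12 of 15.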

How the data were processed

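Whole blood RNA of the mice was depleted of globin RNA, made into 3′ tag libraries with a QuantSeq kit and sequenced on an Ion Proton. Per the submitters' processing notes and methods, cutadapt 1.14 and STAR 2.6 were used with build mm10, and the authors deposited counts of reads per gene as whole numbers, after leaving out genes with few reads. The strand setting is not given in the sources used here. Gene positions and transcript lengths came from the GENCODE annotation of GRCm38, which may differ from the version the authors counted with.

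The 9 mice were fitted with edgeR 4.0.16 (R 4.3.3; TMM, quasi-likelihood F test, genes with at least 1 read), with Benjamini-Hochberg adjustment over all 15584 genes and a threshold of 0.05. Autosomal genes are reported. Levels are CPM with TMM over all 42 mice. Alternatives used DESeq2 1.42.0, limma 3.58.1 and sva 3.50.0. Single values per mouse were tested by exact permutation. The p-values measure the spread between these mice. Statistical scripts were tested on simulated data.

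Named genes were, per direction, the 12 protein-coding genes with the smallest p and a mean of at least 10 CPM in either group, for each list up to 6 called and the 2 most abundant members, the alpha and beta globin genes, and genes that check strain and sex. The other called genes, skin genes and list members were named after their values were seen. The mice, lists and tests were chosen with earlier results of these data known. No columns were left unused (0).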

Additional observations from a re-analysis of the deposited data

Results flagged for a closer look

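Of 94 groups of values examined for a mouse standing apart by Dixon's criterion, 13 held such a mouse, and chance alone flags about 1 in 20 groups. The groups include skin genes chosen after their values were seen and genes that move together, and CPM were used without a log. The 13 can therefore not be weighed against that rate. In the hippocampal group AQ stood apart with D5Ertd579e at 51.9 CPM, Gm6278 at 1.46 CPM, Atp5mpl at 298 CPM, Hba-a1 at 86500 CPM and Hba-a2 at 76400 CPM, each above the other 4 mice. O stood apart with the skin genes Lor at 75.2 CPM, Calm4 at 339 CPM, Krt1 at 44.8 CPM and Flg at 39.4 CPM. R had the most genes with a read, 15300 after rounding. In the prefrontal group FC stood apart with Cd59b at 29.6 CPM and Junb at 86.6 CPM, and FD with Stk38 at 7.15 CPM.

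The electrode contrast differed between sham 3xTg-AD and tDCS C57BL/6 mice (edgeR, adjusted p under 0.05) for 8 of the 32 genes. The difference in log2 fold change was 4.08 for 9530026F06Rik, 3.93 for Cttnbp2, 2.92 for Hbq1a, 2.89 for Rint1, 2.79 for 1500026H17Rik, 2.28 for Gm13842, 2.24 for Trappc2l and 2.16 for Cgrrf1. Strain and current cannot be told apart here.

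Outside the autosomes, Xist had 578 reads in FA, 416 in FC and 265 in FD, and 0 reads in each hippocampal mouse. Its part in the autosomal differences was not tested beyond the fits without these mice and with Xist reads as a covariate.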

How the results depend on the processing

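Of the 32 autosomal calls, the count was 755 with DESeq2, 243 with limma, 161 with the filterByExpr filter, 9 in a fit of the 23 6-month 3xTg-AD mice, and 0 with percent haemoglobin or with 1 surrogate variable as a covariate (edgeR; 1328 and 1230 at an unadjusted p under 0.05). Leaving out 1 mouse gave 2 to 407 calls. Without the 3 mice with Xist reads, which leaves 1 prefrontal mouse, it was 0, and with Xist reads as a covariate in the fit of 23 mice, itself at 9, it was 1. These last settings were chosen after seeing the data. The share of higher calls was 46.9%, and 60.9% with DESeq2, 70.0% with limma and 54.3% with RLE. Of 46 named genes refitted under each alternative, none changed direction: 523 values kept their side of the threshold, 354 lost the call and 38 gained it. These fits reuse the mice in which most of these genes were chosen, so a kept direction was partly fixed in advance. For 3xTg-AD tDCS mice the 80 calls became 705 with DESeq2 and 14 with the Xist covariate. For C57BL/6 tDCS mice the 424 became 265 with filterByExpr and 684 with DESeq2. The difference tests gave 15 and 572 with DESeq2, beside 0 and 66. The difference in total reads ranged from -600000 (without S) to 4000000 with 1 mouse left out, and was -166000 without FD, beside 1980000. The difference ranged from -1230 to -855 in genes with a read, from 9.04 to 18.3 in percent haemoglobin and from 6.07 to 12.9 in percent of the 10 most abundant genes, and each of these lost its adjusted p under 0.05 without O, P, R, S or FD. The cause was not tested. No paired analysis was possible because the mice carry letters and no replicate numbers shared between groups.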
